A study of Mus musculus with 6 samples.

Results

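The 10 genes described here encode liver enzymes that convert androgens, oestrogens and glucocorticoids, and they were taken by symbol from the 49212 genes of the count tables: Srd5a1, Hsd17b6, Hsd3b5, Hsd17b2, Akr1c6, Hsd3b2, Hsd3b3, Cyp17a1, Hsd17b4 and Hsd11b1. All 10 were found and all 10 passed the filter on low counts. Liver RNA came from 3 libraries labelled as mice that carried a DHT pellet as a model of polycystic ovary syndrome and from 3 labelled placebo, all on the C57BL/6J background and 15 weeks old. DHT, dihydrotestosterone, is the androgen that binds the androgen receptor most tightly, and the series concerns androgen, the circadian system of the liver and fatty liver disease. The labels give no dose, no duration of the implant, no sex, no time of collection and no statement that each library is a separate animal, so the p-values measure the spread between these libraries.

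The liver both makes and clears steroid hormones, and a single oxidation or reduction often decides whether a steroid can bind its receptor. DHT is made from testosterone by steroid 5α-reductases. It is removed by reduction of its 3-keto group or by oxidation of its 17β-hydroxyl group, after which the products are conjugated and leave in urine or bile. Of the genes here, Srd5a1 makes DHT, and the human HSD17B6 enzyme can make it back from androstanediol, while the rat enzyme oxidises androstanediol to androsterone. Mouse Hsd3b5 is a 3-keto reductase that removes DHT, and human HSD17B2 oxidises it. The others act upstream (Cyp17a1, Hsd3b2, Hsd3b3), on the 17-keto group (Akr1c6), on oestradiol and fatty acids in peroxisomes (Hsd17b4) or on glucocorticoids (Hsd11b1).

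The libraries held 41336844 to 60209462 gene counts. Levels are given as CPM, each gene's count scaled to that total, and 3 counts in a single library amount to 0.0498 to 0.0726 CPM. Mitochondrial genes took 6.44%, 8.48% and 8% of the counts in DHT libraries 1 to 3, against 6.83%, 4.83% and 3.23% in placebo libraries 1 to 3, and the part this difference has in the results was not tested. The libraries labelled DHT carried Y-linked transcripts: Ddx3y, a helicase gene on Y, had 73.3, 74.1 and 79.2 CPM in DHT libraries 1 to 3, against 0.0997, 0.0545 and 0.0568 CPM in placebo libraries 1 to 3. Xist, the RNA of the silenced X, had 0.203, 0.116 and 0.556 CPM in the DHT libraries, against 41.9, 23.3 and 235 CPM in the placebo libraries. The label and this Y-linked signal follow the same 3 against 3 split and cannot be told apart in any comparison here. All 8 hepatocyte markers were measured, with a summed level of 80530 to 94300 CPM in DHT and 91680 to 136400 CPM in placebo, and 0 of them passed the test. Nor did any marker of bile duct, Kupffer, sinusoidal, stellate or lymphoid cells. Only 1.65% of all genes were called, so these lists are too short to show a like cell make-up. In CPM the groups did not overlap for 3 of 5 bile duct markers, against 27.4% of all genes. That held for 1 of 8 hepatocyte, 1 of 6 Kupffer and 1 of 5 lymphoid markers, and for 0 of 5 sinusoidal and 0 of 5 stellate markers. In whole liver, fewer cells of a type and less RNA per cell cannot be told apart.

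Hsd3b5, Hsd3b3 and Hsd3b2 lie in 1 gene cluster on chromosome 3, and their upstream sequences are shown because the highest-to-lowest ratio within a group reached 254 for Hsd3b5 and at most 2.26 for the other 2 genes. Each line gives the 120 bases before the RefSeq start (GRCm38.p6, minus strand, 5′ to 3′), and capitals mark runs of at least 9 bases that Hsd3b5 and Hsd3b3 share. They are at chr3:98645535-98645654 for Hsd3b5, chr3:98763129-98763248 for Hsd3b3 and chr3:98724544-98724663 for Hsd3b2.
Hsd3b5: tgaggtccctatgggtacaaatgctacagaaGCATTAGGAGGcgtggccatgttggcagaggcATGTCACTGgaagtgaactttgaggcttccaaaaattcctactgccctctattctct
Hsd3b3: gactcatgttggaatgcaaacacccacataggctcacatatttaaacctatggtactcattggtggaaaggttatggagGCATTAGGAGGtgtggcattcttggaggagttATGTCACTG
Hsd3b2: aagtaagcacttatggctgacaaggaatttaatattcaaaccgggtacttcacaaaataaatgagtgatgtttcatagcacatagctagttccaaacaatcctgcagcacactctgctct
Hsd3b5 and Hsd3b3 share the same pair of runs, 20 bases in all, in the same order, and Hsd3b2 shares none with either. The RefSeq start of Hsd3b5 lies 15282 bases outside the outermost exon that the count tables give it. RefSeq promoter windows of 300 bases were matched for 7 of the 10 genes, 9 windows in all, and were searched on both strands. Hsd17b2, Hsd17b4 and Cyp17a1 had no window, so the motif counts do not cover them. The STAT5 motif TTCNNNGAA was in 0 of the 9 windows and in 8.3% of all 32851 promoters. The full palindromic response element of the androgen and glucocorticoid receptors was in 0 of 9 and in 0.00913% of all. A single arm of it, AGAACA, which every full element also holds, was in 1 of 9, that of Hsd3b2 at 246 bases before the start, and in 19% of all. The E-box CACGTG (7.15% of all) and the D-box TTATGTAA (0.938% of all) were in 0 of 9.

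No gene of the 10 passed the test between DHT and placebo. When libraries with the same number were compared with each other 4 did, though the numbers name no shared litter or day. The ratio of mean CPM, DHT over placebo, was 2.17 for Srd5a1, 2.15 for Hsd17b4, 0.240 for Cyp17a1 and 0.335 for Hsd17b6. In these 4 genes the groups did not overlap in CPM. By edgeR's quasi-likelihood test with Benjamini-Hochberg adjustment over 15126 genes, 0 of 10 were called at an adjusted p under 0.05, where 1.65% of all genes were called. At an unadjusted p under 0.05 there were 6 of 10, against 15.9% of all genes. DESeq2 called 3 of 10 (7.03% of all genes) and limma voom with sample weights 3 of 10 (4.67%), in each case Cyp17a1, Hsd17b6 and Srd5a1. Deviations from the group means correlated across all genes at 0.602 for libraries numbered 3. They correlated at 0.246 for number 1 and at 0.145 for number 2. DHT 1 correlated more with placebo 2 (0.445), and DHT 2 more with placebo 1 (0.287). With the library number as a block edgeR called 4 of 10, 2 higher and 2 lower, where 10.7% of all genes were called. Without placebo 3, which had the highest Xist, the test without the block called the same 3 genes as DESeq2, where 5.54% of all genes were called. Without both libraries numbered 3 it called Cyp17a1 alone, where 2.95% of all genes were called. With no low-count filter it called 2 of 10, Cyp17a1 and Hsd17b6 (1.97% of all genes), and with library size alone Srd5a1 (1.96%). In 6 of 10 genes the CPM of the 2 groups did not overlap, against 27.4% of all genes; with TMM scaling it was 5 of 10, against 23.6%, the gene that differed being Hsd3b2.

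**Figure D1:**
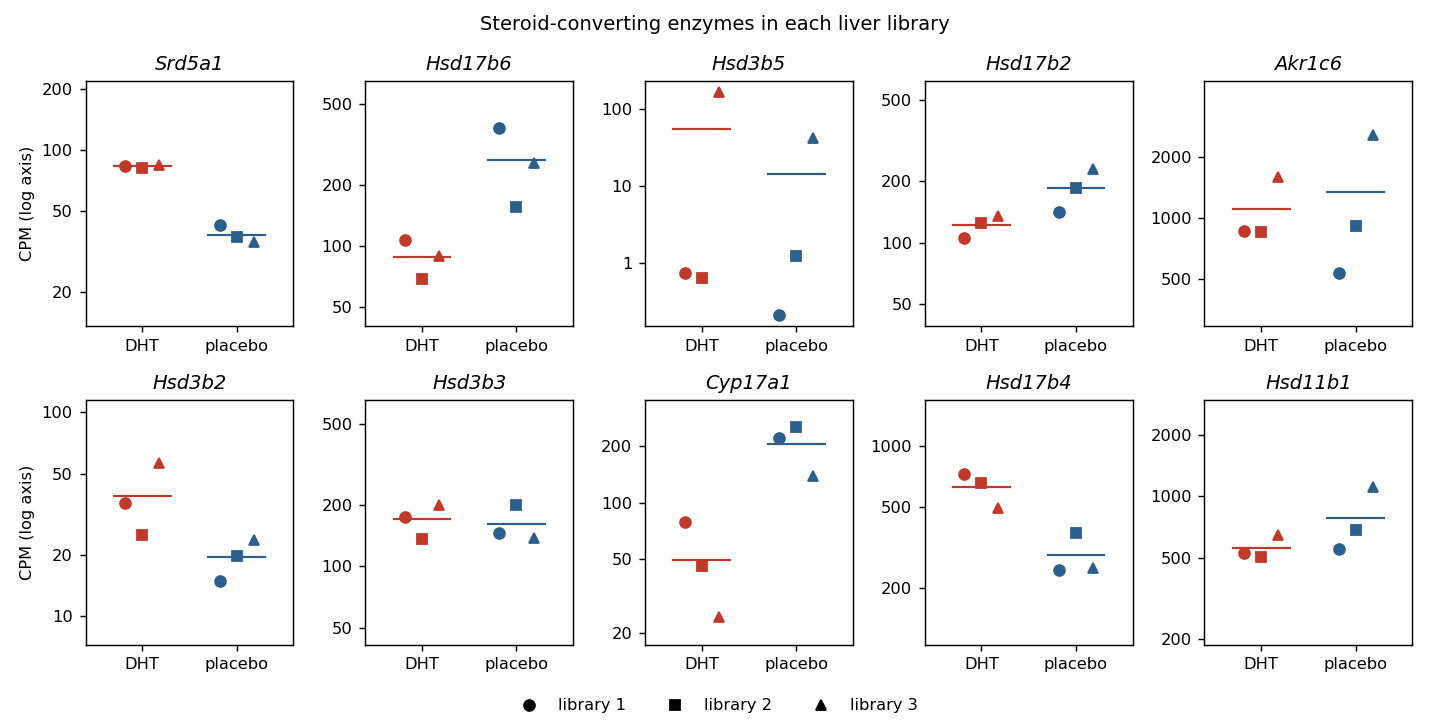
CPM of the 10 genes on log axes, with DHT libraries in red at the left and placebo libraries in blue at the right of each panel, the library number by marker shape and the group mean as a line. Srd5a1 lies between 81.5 and 84.5 CPM in all 3 DHT libraries, and Hsd3b5 is high only in library 3 of each group.

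Srd5a1, the gene of the type 1 steroid 5α-reductase, which makes DHT from testosterone (GRCm38 chromosome 13, 69573449 to 69611442), had 83.7, 81.5 and 84.5 CPM in DHT libraries 1 to 3, against 42.7, 37.2 and 35.2 CPM in placebo libraries 1 to 3. The 3 DHT libraries were nearly alike, with a coefficient of variation of 1.88% against 10.1% in placebo, and the groups did not overlap. Its mean was 83.2 ± 1.56 CPM in DHT and 38.4 ± 3.87 CPM in placebo (SD, n = 3 each). Without overlap any pairing has DHT higher, and the numbered pairs gave 1.96, 2.19 and 2.40-fold. The edgeR log2 fold change was 0.93 ± 0.21 (SE, adjusted p = 0.0852), and with the replicate block it was 0.93 ± 0.27 (adjusted p = 0.0138). Exons of Srd5a1 overlap those of Gm17108 on the same strand over 16.5% of their length, so that part of its count is uncertain.

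Hsd17b6, a short-chain dehydrogenase of androstanediol (chromosome 10, 127990941 to 128000678), had 107, 68.6 and 89.8 CPM in DHT libraries 1 to 3, against 381, 156 and 256 CPM in placebo libraries 1 to 3. Every placebo library was above every DHT library, and placebo 2 was the lowest of placebo. The log2 fold change was −1.75 ± 0.37 (SE, edgeR adjusted p = 0.0669), and the replicate block gave −1.70 ± 0.29 (adjusted p = 2e-05). In numbered pairs the DHT library had 0.281, 0.44 and 0.351 times the CPM of the placebo library. Of 1373 windows of 150 bases in its longest transcript, 7.21% also occur in transcripts of its neighbours Rdh1 or Rdh16f1.

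Hsd3b5, the reductase that inactivates DHT and a gene known for male-biased expression in mouse liver (chromosome 3, 98618634 to 98630252), split by library number and not by label. It held 45, 34 and 6901 counts in DHT libraries 1 to 3, which is 0.759, 0.657 and 167 CPM. Placebo libraries 1 to 3 held 13, 69 and 2216 counts, which is 0.216, 1.25 and 42.0 CPM. In both groups library 3 was far above libraries 1 and 2, with a highest-to-lowest ratio of 254 in DHT and 194 in placebo. Ddx3y was high in all 3 DHT libraries and near 0 in placebo 3, and its relation to the pattern of Hsd3b5 was not tested. The log2 fold change was 1.72 ± 2.16 (SE, edgeR adjusted p = 0.728), and DHT 3 and placebo 3 decide it: it was −4.54 ± 1.94 without DHT 3, 6.05 ± 3.84 without placebo 3 and −0.23 ± 0.76 without both. DESeq2 gave no adjusted p for it.

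Hsd17b2, the oxidative 17β-hydroxysteroid dehydrogenase that turns testosterone into androstenedione and oestradiol into oestrone (chromosome 8, 117701904 to 117759027), had 105.0, 125 and 136 CPM in DHT libraries 1 to 3, against 141, 186 and 231 CPM in placebo libraries 1 to 3. The groups did not overlap, and within each group library 3 was the highest. Hsd17b2 had a log2 fold change of −0.80 ± 0.28 (SE, edgeR adjusted p = 0.221; 0.0656 with the replicate block).

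Akr1c6, the aldo-keto reductase that interconverts 17-keto and 17β-hydroxy steroids in mouse liver (chromosome 13, 4434306 to 4457530), had the highest level of the 10 genes per kb of exon in both groups. It had 865, 851 and 1595 CPM in DHT libraries 1 to 3, against 539, 910.3 and 2570 CPM in placebo libraries 1 to 3. The placebo range enclosed the DHT range, and library 3 was the highest in each group. Akr1c6 had a log2 fold change of −0.49 ± 0.58 (SE, edgeR adjusted p = 0.711), and without placebo 3 its sign turned, to 0.41 ± 0.37 (adjusted p = 0.533). The genes whose log2 CPM followed Akr1c6 most closely over the 6 libraries, of 11960 compared, were Mrpl9 (Pearson r = 0.997), Trmt11 (0.996) and Mtfr1 (0.995). They were picked as the highest of 11960 values, and shared regulation was not tested.

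**Figure D2:**
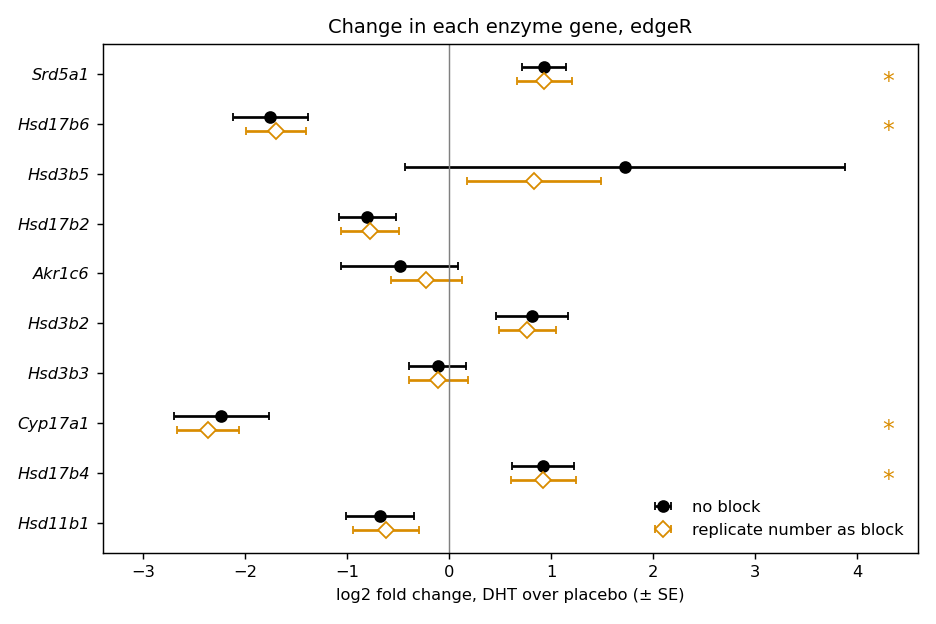
Log2 fold change of the 10 genes, DHT over placebo, with SE, from edgeR without a block (black) and with the replicate number as a block (orange). Asterisks mark the 4 genes with an adjusted p under 0.05 with the block: Srd5a1, Hsd17b6, Cyp17a1 and Hsd17b4.

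Cyp17a1, the P450 with hydroxylase and lyase activity that opens the route to androgens in glands (chromosome 19, 46667165 to 46672974), had the largest fitted difference of the 4 genes called with the block. It had 78.3, 45.4 and 24.2 CPM in DHT libraries 1 to 3, against 222, 255 and 140 CPM in placebo libraries 1 to 3. The highest DHT library was below the lowest placebo library, and library 3 was the lowest in each group. The mean was 49.3 ± 27.2 CPM in DHT and 206 ± 59.5 CPM in placebo (SD, n = 3 each). The log2 fold change was −2.24 ± 0.47 (SE, edgeR adjusted p = 0.0659, a 4.71-fold difference), and the replicate block gave −2.37 ± 0.30 (adjusted p = 2.44e-08). In numbered pairs the DHT library had 0.352, 0.178 and 0.174 times the CPM of the placebo library. Of 10 markers of steroid-making glands, 6 were at 0 counts in all 6 libraries (Cyp11b1, Cyp11b2, Nr5a1, Mc2r, Fshr and Lhcgr). The summed level of those 10 was 1.91 to 2.22 CPM in DHT and 0.795 to 1.15 CPM in placebo. Of the 2 that could be tested 1 was called, Cyp21a1, where 1.65% of all genes were called. Cyp21a1 held 19, 40 and 13 counts in DHT libraries 1 to 3, and only 1 of the fits that left out 1 library called it.

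Hsd3b2 and Hsd3b3, mouse enzymes of the dehydrogenase and isomerase type that act upstream of testosterone, did not pass the test with or without the replicate block, and the differences between the 3 genes were not tested. Hsd3b2 (chromosome 3, 98709255 to 98724543) had 35.8, 24.9 and 56.3 CPM in DHT libraries 1 to 3, against 14.9, 19.7 and 23.6 CPM in placebo libraries 1 to 3. The groups did not overlap in CPM, with DHT 2 just above placebo 3, and they overlapped with TMM scaling. Its log2 fold change was 0.81 ± 0.35 (SE, edgeR adjusted p = 0.311; 0.0652 with the replicate block). Hsd3b3 (chromosome 3, 98741523 to 98763127) had 174, 136 and 201 CPM in DHT libraries 1 to 3, against 145, 201 and 138 CPM in placebo libraries 1 to 3, and the groups overlapped. Its log2 fold change was −0.11 ± 0.28 (SE, edgeR adjusted p = 0.875), and scaling by library size alone turned its sign, to 0.077. That scaling put the median of all genes at 0.165, against −0.0245 with TMM. Exons of Hsd3b2 and Hsd3b3 overlap Zfp697 on the opposite strand, over 2.68% and 4.39% of their length.

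Per kb of exon, Hsd3b5 made up 1.31%, 1.49% and 69.8% of the summed level of Hsd3b2, Hsd3b3 and Hsd3b5 in DHT libraries 1 to 3, against 0.518%, 2.16% and 49.1% in placebo libraries 1 to 3. Library 3 stood apart from libraries 1 and 2 in both groups. The mean share was 24.2 ± 39.5% in DHT and 17.3 ± 27.6% in placebo (SD, n = 3 each). The difference of 6.92 percentage points had an exact two-sided permutation p of 0.7, where 3 against 3 allows no p below 0.1. The share depends on the exon lengths, 1549 bases for Hsd3b5, 3695 for Hsd3b2 and 6396 for Hsd3b3. By raw counts its mean was lower, 13.4% in DHT and 7.09% in placebo (same permutation test, p = 0.7). Of the 150-base windows in the longest transcript, 2.23% of Hsd3b2 occur in Hsd3b3 transcripts and 1.21% of Hsd3b5 occur in those of Hsd3b4 or Gm10681. Hsd3b4 held 0 counts in all 6 libraries.

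**Figure D3:**
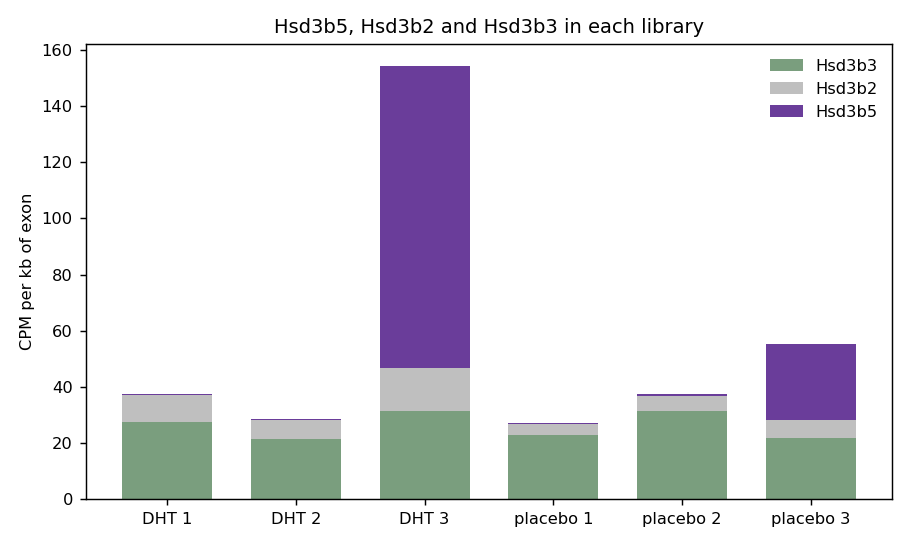
CPM per kb of exon of Hsd3b3, Hsd3b2 and Hsd3b5, stacked, in DHT libraries 1 to 3 (left) and placebo libraries 1 to 3 (right). Hsd3b5 makes up 69.8% of the stack in DHT 3 and 49.1% in placebo 3, and at most 2.16% in the other 4 libraries.

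Hsd17b4, a peroxisomal enzyme that oxidises oestradiol and, as its main task, shortens very long fatty acids and bile acid side chains (chromosome 18, 50128201 to 50196269), had 724, 651 and 492 CPM in DHT libraries 1 to 3, against 244, 373 and 251 CPM in placebo libraries 1 to 3. The lowest DHT library was above the highest placebo library. Its mean was 623 ± 119 CPM in DHT and 289.6 ± 72.6 CPM in placebo (SD, n = 3 each). The log2 fold change was 0.91 ± 0.30 (SE, edgeR adjusted p = 0.205), and the call came with the replicate block (0.92 ± 0.32, adjusted p = 0.0472), close to the threshold and in no other of 14 alternatives.

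Hsd11b1, which reactivates glucocorticoid in liver (chromosome 1, 193221634 to 193264075), had 530.4, 506 and 646 CPM in DHT libraries 1 to 3, against 554, 685 and 1110.0 CPM in placebo libraries 1 to 3. The groups overlapped, since DHT 3 was above placebo 1. Hsd11b1 had a log2 fold change of −0.68 ± 0.33 (SE, edgeR adjusted p = 0.357; 0.227 with the replicate block), and without placebo 3 it was −0.33 ± 0.25.

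Compared per kb of exon, the order of the 10 genes differed between the groups. The order depends on the exon length used, which can exceed that of any transcript. For Hsd11b1 it was 4251 bases, against 1978 in its longest transcript. In DHT it ran Akr1c6 (597 ± 230.3 CPM per kb, SD, n = 3), Hsd17b4 (183), Hsd11b1 (132), Hsd17b6 (63.6), Hsd17b2 (63.4), Hsd3b5 (36.2), Srd5a1 (28.9), Hsd3b3 (26.6), Cyp17a1 (22.8) and Hsd3b2 (10.6). In placebo it ran Akr1c6 (725 ± 585 CPM per kb, SD, n = 3), Hsd17b6 (189.9), Hsd11b1 (184), Hsd17b2 (96.6), Cyp17a1 (94.9), Hsd17b4 (85.1), Hsd3b3 (25.3), Srd5a1 (13.3), Hsd3b5 (9.35) and Hsd3b2 (5.25). Neighbours in these orders whose ranges did not overlap were, in DHT, Akr1c6 and Hsd17b4, and Hsd11b1 and Hsd17b6. In placebo they were Akr1c6 and Hsd17b6, Hsd11b1 and Hsd17b2, Hsd17b4 and Hsd3b3, and Hsd3b3 and Srd5a1. All other neighbours overlapped. The place of Hsd3b5 in each order rests on library 3. It had 0.49, 0.424 and 107.8 CPM per kb in DHT libraries 1 to 3, against 0.139, 0.81 and 27.1 in placebo libraries 1 to 3.

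Library 3 had the highest CPM within its group, in both groups at once, for 5 of the 10 genes (Hsd3b2, Hsd3b5, Hsd17b2, Hsd11b1 and Akr1c6), against 29.4% of all genes tested. In the Akr1c cluster on chromosome 13 it held for 6 of 8 listed genes, Akr1c6 among them. The exceptions were Akr1c18, highest in DHT 2 (0.793 CPM, against 0.118 in DHT 1 and 0.339 in DHT 3), and Akr1c21, lowest in DHT 3 (0.0726 CPM); both were at most 2.08 CPM in every library. Akr1c14, the gene of the 3α-hydroxysteroid dehydrogenase that reduces DHT, had 309, 402 and 549.6 CPM in DHT libraries 1 to 3, against 199.6, 462 and 901 CPM in placebo libraries 1 to 3. The DHT values lay within the placebo range. Its exons overlap those of RP23-193M8.3 on the same strand over 7.87% of their length. Its log2 fold change was −0.52 ± 0.52 (SE, edgeR adjusted p = 0.654), with the sign turned without placebo 3 (0.15 ± 0.39).

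**Figure D4:**
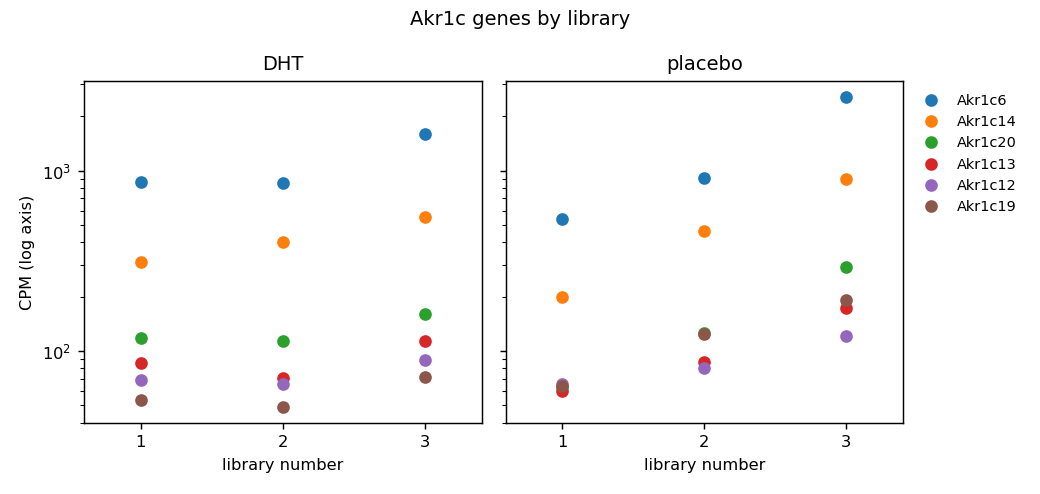
CPM on a log axis of Akr1c6 and 5 other Akr1c genes in DHT libraries 1 to 3 (left) and placebo libraries 1 to 3 (right). Each of these 6 genes is highest in library 3 of its group; Akr1c18 and Akr1c21, for which that did not hold, are not drawn.

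Of 44 other enzymes and partners of steroid metabolism listed, 43 were in the tables and 32 were tested; 1 was called higher, 3 lower and 28 were not called. The higher gene was Cyp21a1 and the lower ones were Hsd3b1, BC089597 and Por. Their median log2 fold change was −0.165, against −0.0245 over all genes, and the background was 0.952% of all genes called higher and 0.701% called lower. With the replicate block 4 of 32 were higher and 5 lower, where 5.44% of all genes were called higher and 5.28% lower. The added ones, chosen after their values were seen, were Cyp7b1, which hydroxylates androstanediols (1.78 ± 0.30), Dhrs9 (2.47 ± 0.43) and Hsd3b7 (1.34 ± 0.36) among the higher, and Akr1c19 (−1.20 ± 0.29) and Fdx1 (−0.94 ± 0.28) among the lower, with adjusted p-values from 1.53e-05 for Cyp7b1 to 0.0196 for Fdx1.

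Por, which encodes the reductase that passes electrons to CYP17A1 and other microsomal P450 enzymes (chromosome 5, 135670033 to 135735326), had 164, 122.7 and 106 CPM in DHT libraries 1 to 3, against 853, 1184 and 509 CPM in placebo libraries 1 to 3. No library of one group reached the other, and in numbered pairs the DHT library had 0.192, 0.104 and 0.209 times the placebo level. Its log2 fold change was −2.88 ± 0.39 (SE, edgeR adjusted p = 0.0125). The adjusted p passed 0.05 when DHT 2 or placebo 1 was left out, reaching 0.0818. Cyb5a, the cytochrome b5 that aids the lyase step of CYP17A1, had 969, 1016 and 1273 CPM in DHT libraries 1 to 3, against 1146, 1112 and 2132 CPM in placebo libraries 1 to 3. Those groups overlapped in CPM but not with TMM scaling, and its log2 fold change was −0.63 ± 0.34 (SE, edgeR adjusted p = 0.397).

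BC089597, at the place that RefSeq gives to Rdh16f2, a member of the retinol dehydrogenase family to which Hsd17b6 is related, lies near Hsd17b6 on chromosome 10 (127866474 to 127877317). It had 67.7, 50.7 and 78.1 CPM in DHT libraries 1 to 3, against 245, 315 and 426 CPM in placebo libraries 1 to 3, with no overlap. Its log2 fold change was −2.52 ± 0.33 (SE, edgeR adjusted p = 0.0113). The gene was no longer called when DHT 1 or DHT 2 was left out, at up to 0.0659. Windows of its transcript shared with other genes were not searched for.

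Hsd3b1, the isoform of steroid-making glands in the mouse (chromosome 3, 98852194 to 98859794), had 0 counts in all 3 DHT libraries and 160, 54 and 38 counts in placebo libraries 1 to 3. Against a floor of 3 counts over the pooled DHT libraries it was at least 76.2-fold lower in DHT (edgeR adjusted p = 0.0212), and of the fits that left out 1 library it was called in those without DHT 3 and without placebo 3. Placebo 1 held 160 of the 252 counts, and the bound was 43.3-fold without it, 46.5-fold without DHT 1 and 50.3-fold without DHT 2. Cyp21a1, the hydroxylase of glucocorticoid synthesis (chromosome 17, 34801348 to 34804561), held 19, 40 and 13 counts in DHT libraries 1 to 3 and 0 counts in all 3 placebo libraries. It was at least 26.5-fold higher in DHT (edgeR adjusted p = 0.0359), and of those 6 fits it was called in that without placebo 3. Its bound was 17.0-fold without placebo 1. Leaving libraries out of both bounds was added after the data were seen. Both genes stayed under 3 CPM in every library, and Cyp11a1, which starts steroid synthesis, held 1 count in all. Exons of Cyp21a1 overlap those of Tnxa on the opposite strand over 4.77% of their length.

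Of the most counted genes on that list, Hsd17b13, a lipid droplet enzyme, had 529, 737 and 351 CPM in DHT libraries 1 to 3, against 438, 325 and 308 CPM in placebo libraries 1 to 3. H6pd, which supplies the NADPH that Hsd11b1 uses, had 403, 350.4 and 333 CPM in DHT libraries 1 to 3, against 192, 313 and 94.9 CPM in placebo libraries 1 to 3. Akr1d1, the steroid 5β-reductase, had 251, 218 and 302 CPM in DHT libraries 1 to 3, against 218, 441 and 571 CPM in placebo libraries 1 to 3. The H6pd groups did not overlap in CPM but did with TMM scaling, and the others overlapped. None of the 3 passed the test, with log2 fold changes of 0.41 ± 0.33 for Hsd17b13, 0.67 ± 0.42 for H6pd and −0.87 ± 0.38 for Akr1d1 (SE, edgeR adjusted p = 0.566, 0.466 and 0.318).

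**Figure D5:**
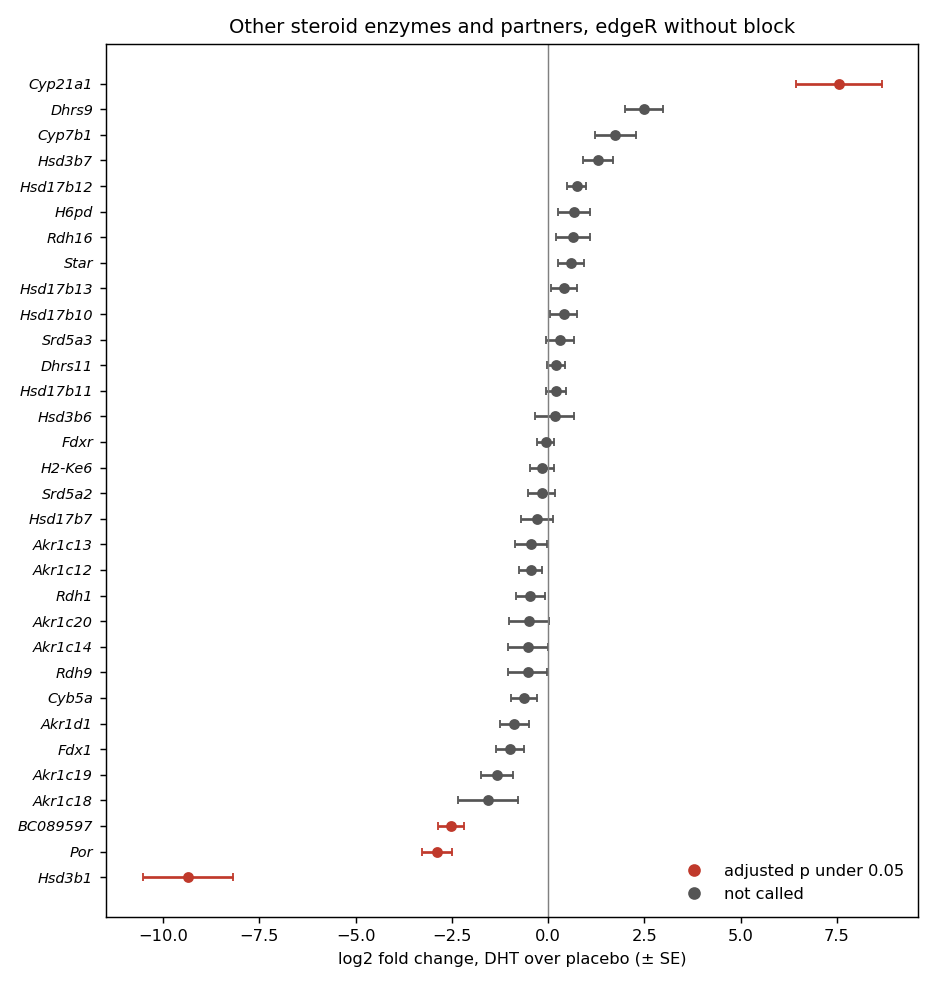
Log2 fold change with SE, DHT over placebo, of the 32 other steroid enzymes and partners that were tested, from edgeR without a block, with the 4 called genes in red. The values of Hsd3b1 and Cyp21a1, each with 0 counts in 1 group, depend on the prior count of the fit.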

How the data were processed

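Liver RNA of 6 libraries was measured, 3 labelled DHT and 3 labelled placebo, and grouped by the treatment label. The authors deposited whole-number counts for 49212 genes per library, per the file headers, with no normalisation. The submitters' processing notes name Trimmomatic 0.36, STAR 2.5.2b, featureCounts, Subread 1.5.2 and GRCm38. The sources used here do not say how strand and multi-mapping reads were handled or whether single reads or read pairs were counted, so counts of near-identical or overlapping genes are uncertain. The least different pair of libraries of a group still differed beyond sampling noise (chi-square per degree of freedom 104.7).

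CPM in the text are the deposited counts scaled to the sum over all genes of a library. Tests used R 4.3.3 and edgeR 4.0.16 (filterByExpr, TMM factors 0.9214 to 1.082, robust glmQLFit, glmQLFTest, no covariate), adjusted over 15126 genes with the Benjamini-Hochberg method and called under 0.05. The SE is the log2 fold change over the square root of F. The code was tested on simulated counts. Titles of the 2 groups share the numbers 1 to 3, which name no shared litter or day. Deviations from the group means correlated at 0.246, 0.145 and 0.602 for same-numbered libraries 1, 2 and 3, all above 0.1, so the blocked fit is given where it changes a call. DHT 1 correlated more with placebo 2 (0.445), and DHT 2 with placebo 1 (0.287). Deviations within a group sum to 0, so the correlations for numbers 1 to 3 are not independent of each other.

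Alternatives were other scaling and filters, the replicate block, DESeq2 1.42.0, limma 3.58.1 voom, leaving out each library, and leaving out both numbered 3. The genes and lists were chosen with earlier results of these data known. Genes of the wider list are named where called or among the 6 with the highest mean CPM. The 3 genes most like the most counted uncalled gene (by log2 TMM-scaled CPM plus 0.1, mean not under 1 CPM) are named too. The rule also asked for those like the called gene with the smallest p, and no gene was called. Symbols of 41 genes of the wider list matched directly, 1 by a RefSeq synonym and 1 by its RefSeq place. Promoters are from RefSeq. Bounds cover counting error only, since reads carry no molecular identifiers.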

Additional observations from a re-analysis of the deposited data

How the results depend on the processing

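The count of the 10 genes called was 0 and stayed at 0 with relative log expression factors or a minimum of 1 CPM in 3 libraries. It was 4 with the replicate block, 3 with DESeq2, 3 with limma voom, 2 with no low-count filter, 1 with library size alone, 1 without both libraries numbered 3, and 0 to 3 with 1 library left out. For the wider list the 4 calls became 9 with the replicate block, 8 with DESeq2, 2 with the 1 CPM minimum and 0 to 6 with 1 library left out. Over all genes the 250 calls became 1621 with the replicate block, 1062 with DESeq2, 707 with limma voom, 521 with no low-count filter, 448 without both libraries numbered 3 and 84 to 862 with 1 library left out. With library size alone 207 genes were called higher and 89 lower, against 144 and 106 with TMM. The cause of these differences was not tested.

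Signs turned for 3 of the 10 genes, none of them called. Hsd3b3 had 0.077 with library size alone and −0.23 to 0.071 with 1 library left out. Hsd3b5 had −0.23 without both libraries numbered 3 and −4.54 to 6.05 with 1 library left out. Akr1c6 had 0.11 with limma voom, 0.068 without both libraries numbered 3 and −0.90 to 0.41 with 1 library left out. The difference in the share of Hsd3b5 was 6.28 percentage points by raw counts and ran from −15.9 to 22.9 with 1 library left out. Directions of the other 7 genes and of the 4 called genes of the wider list held in all alternatives that gave them a value. The block changed no other call among the genes named than those given with the results. With 1 library left out, the lowest bounds of the fold were 43.3 for Hsd3b1 and 17.0 for Cyp21a1, and the highest were 94.3 and 31.9. Depth limits the genes with few counts in a group, among them Hsd3b1, Cyp21a1, Dhrs9 in placebo (12 to 31 counts) and Hsd3b5 in libraries 1 and 2 (13 to 69 counts).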
